A study of Mus musculus with 12 samples.

Results

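The 45 genes described here work in mitosis, the stage in which a cell with copied chromosomes divides. They were chosen by name, with earlier results of these data known. The list covers cyclins and their kinase, mitotic kinases, the spindle checkpoint, the anaphase machinery, centromere and kinetochore proteins, kinesins, spindle microtubule proteins and cytokinesis proteins. All 45 names were found among the 23478 genes of the count table, and all 45 passed the filter on low counts that left 15761 genes for testing.

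The measurements are RNA-seq libraries from the lungs of C57/Bl6 pups whose bronchoalveolar lavage fluid had been taken off first. The 12 libraries form 4 groups of 3. ATG hyperoxia pups received 25 mg/kg aurothioglucose (ATG), a gold compound known as a thioredoxin reductase inhibitor, into the peritoneum on day 0 and spent the next 72 h in over 95% oxygen. Saline hyperoxia pups received saline and the same oxygen, ATG room air pups the drug and normal air, and saline room air pups saline and normal air. No mutant allele is named for any group, and the lungs are whole tissue, so every cell type of the lung contributed RNA. Which animal or litter a library came from is not labelled, and p-values here therefore cover the sample-to-sample spread alone, part of which may be technical.

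A cell enters mitosis when cyclin B activates Cdk1, and the mitotic kinases then drive spindle assembly and chromosome alignment. The spindle checkpoint holds back the anaphase-promoting complex until every kinetochore is attached, after which separase frees the sister chromatids and cytokinesis parts the daughter cells. Transcripts of most of these genes rise in G2 and mitosis and are low in resting cells. In the newborn mouse lung many epithelial, endothelial and mesenchymal cells still divide.

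The libraries held 14331749 to 20486735 counts. Levels are in CPM, counts scaled to the size of the library. Summed over 8 cardiomyocyte markers, ATG hyperoxia 2 (6967 CPM) and saline hyperoxia 2 (3148 CPM) stood above the other libraries (425 to 978 CPM). Over 8 markers of thymocytes, which divide quickly, saline hyperoxia 2 (79.5 CPM) and saline hyperoxia 3 (30.6 CPM) stood above the rest (9.08 to 21.0 CPM). Of these markers, Ptcra was at 0 in 6 libraries and Rag1 was above 0 in all 12. Skeletal muscle markers summed to 354 CPM in saline hyperoxia 1 and to 20.5 to 62.0 CPM elsewhere. Markers of lung epithelium summed to 18880 CPM or more in every library, which fits the tissue on the label. By sex-linked transcripts, 2 of 3 libraries were male in ATG hyperoxia, 1 of 3 in saline hyperoxia, 1 of 3 in ATG room air and 3 of 3 in saline room air.

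Most of these mitosis genes were lower in hyperoxia than in room air after either injection. Hyperoxia was set against room air within each injection to ask what high oxygen did to them. After ATG, 41 of the 45 fell, none rose and 4 did not pass (edgeR quasi-likelihood test, adjusted p under 0.05), against 6.25% of all genes tested that fell and 11.7% that changed either way. The median log2 fold change of the 45 was −1.80, against 0.00 over all genes tested. After saline, 38 fell, none rose and 7 did not pass, against 4.5% of all genes tested that fell and 9.19% that changed either way, and the median was −1.48. Since the 45 were chosen with earlier results of these data known, these counts describe them and are no independent test. In whole lungs, fewer dividing cells and less of these transcripts per dividing cell cannot be told apart.

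The libraries of the hyperoxia and room air groups mostly did not overlap. After ATG, all 3 hyperoxia libraries lay below all 3 room air libraries for 40 of the 45 genes, against 13.9% of all genes tested. After saline this held for 42 genes, against 14.9% of all genes tested. The drop was of similar depth across the list, with quartiles of the log2 fold change at −1.98 and −1.57 after ATG and at −1.61 and −1.23 after saline. After ATG, 10 genes fell past −2 and 31 lay between −2 and −1, while after saline none fell past −2 and 37 lay between −2 and −1.

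**Figure D1:**
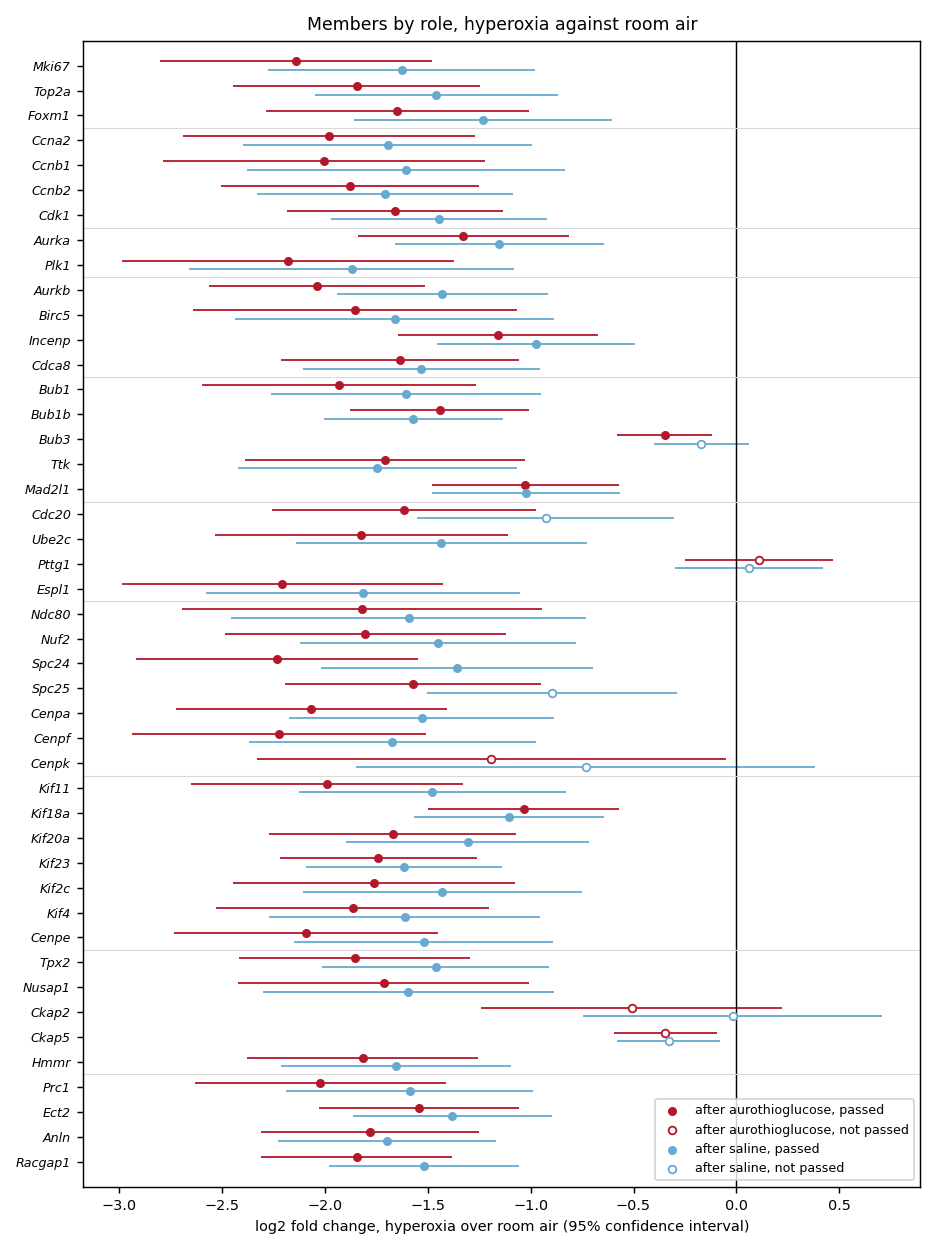
Log2 fold change of hyperoxia over room air for each of the 45 genes, ordered by role, with 95% confidence intervals from the edgeR fit. Red points are after ATG and blue points after saline (n = 3 libraries a group), filled where the adjusted p was under 0.05 (41 and 38 genes). Most points lie between −1 and −2.2, and Bub3, Pttg1, Cenpk, Ckap2 and Ckap5 lie nearer to 0 or have wide intervals.

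Proliferation markers and regulators fell together, 3 of 3 after each injection. Mki67 (GRCm38.p6, chromosome 7, 135689784 to 135716450) encodes Ki-67, which coats mitotic chromosomes and marks cycling cells. Its level was 256, 154 and 277 CPM in ATG hyperoxia and 203, 426 and 297 CPM in saline hyperoxia, against 1162, 613 and 1257 CPM in ATG room air and 752, 871 and 1235 CPM in saline room air. Every hyperoxia library was below every room air library. Mki67 was the most abundant of the 45 per length of its merged exons in all groups, at 22.8 CPM per kilobase in ATG hyperoxia and 30.7 in saline hyperoxia, against 100.5 in ATG room air and 94.7 in saline room air. Top2a, the topoisomerase that untangles sister chromatids, ranked second in room air and below Ckap5 in hyperoxia, with 10.6 and 13.6 CPM per kilobase in ATG and saline hyperoxia, against 38.0 and 37.2 in ATG and saline room air. Top2a fell by 1.85 (SE 0.28) after ATG and by 1.46 (SE 0.28) after saline on the log2 scale. Foxm1, the transcription factor that activates many G2 and mitosis genes, fell by 1.65 (SE 0.30) and by 1.23 (SE 0.29) after ATG and saline. Foxm1 averaged 25.1 ± 9.46 CPM in ATG hyperoxia and 34.5 ± 6.07 CPM in saline hyperoxia, against 78.7 ± 27.9 CPM in ATG room air and 81.0 ± 20.7 CPM in saline room air (SD, n = 3 each).

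The cyclins and their kinase fell in 4 of 4 cases after each injection. Cdk1 (chromosome 10, 69335146 to 69352912), the kinase that starts mitosis, had 13.1, 10.8 and 14.2 CPM in ATG hyperoxia and 12.5, 16.9 and 9.25 CPM in saline hyperoxia, against 39.4, 29.7 and 51.2 CPM in ATG room air and 27.0, 32.6 and 45.6 CPM in saline room air. The hyperoxia and room air libraries did not overlap, and saline hyperoxia 2, at 16.9 CPM, was the highest of the 6 hyperoxia libraries. Cdk1 fell by 1.66 after ATG (SE 0.25, edgeR adjusted p = 0.000666) and by 1.44 after saline (SE 0.25, adjusted p = 0.00243). Ccna2, the A-type cyclin of S phase and early mitosis, had a log2 fold change of −1.98 after ATG and −1.70 after saline. Ccnb2, a B-type cyclin, had −1.88 and −1.71 in the same order. Ccnb1, the main partner of Cdk1 at mitotic entry, had −1.61 after saline and a 95% interval of −2.79 to −1.22 after ATG, but its reads are uncertain: 3 processed pseudogenes, Ccnb1-ps, Gm12856 and Gm8416, match 51.7% to 52.0% of its transcript at 97.3% to 99.2% identity.

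Both general mitotic kinases fell after each injection. Plk1 (chromosome 7, 122159435 to 122169884), the polo-like kinase of spindle assembly and mitotic exit, had 2.37, 4.15 and 3.89 CPM in ATG hyperoxia and 2.62, 8.40 and 3.65 CPM in saline hyperoxia, against 20.6, 9.75 and 16.9 CPM in ATG room air and 15.3, 19.6 and 18.6 CPM in saline room air. Saline hyperoxia 2 stood above the other hyperoxia libraries and ATG room air 2 below the other room air libraries, but the groups did not overlap. Aurka, the aurora kinase of centrosomes and spindle poles, fell less, by 1.33 (SE 0.24) after ATG and by 1.15 (SE 0.24) after saline.

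The chromosomal passenger complex, which corrects faulty attachments of chromosomes to the spindle, fell in 4 of 4 subunits after each injection. Aurkb (chromosome 11, 69045624 to 69051664), its kinase, had 13.0, 8.13 and 16.8 CPM in ATG hyperoxia and 16.2, 21.3 and 17.2 CPM in saline hyperoxia, against 58.5, 37.3 and 60.0 CPM in ATG room air and 44.1, 42.2 and 61.3 CPM in saline room air. The lowest room air library, at 37.3 CPM, was still well above the highest hyperoxia library, at 21.3 CPM. Birc5, the survivin subunit that places the complex at centromeres, had a log2 fold change of −1.85 (SE 0.37) after ATG and −1.66 (SE 0.36) after saline. Cdca8, the borealin subunit, had −1.64 and −1.53. Incenp, the scaffold of the complex, fell least of the 4, with −1.16 (SE 0.23) after ATG and −0.97 (SE 0.23) after saline.

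The spindle checkpoint genes did not all move alike. Bub1b (chromosome 2, 118598202 to 118641592), which encodes the checkpoint kinase-like protein BubR1, had 13.5, 13.5 and 17.2 CPM in ATG hyperoxia and 11.1, 17.5 and 17.6 CPM in saline hyperoxia, against 43.9, 29.7 and 46.8 CPM in ATG room air and 39.5, 44.2 and 53.2 CPM in saline room air. It fell by 1.44 after ATG (SE 0.20, edgeR adjusted p = 0.00048) and by 1.57 after saline (SE 0.20, adjusted p = 0.000366), with no overlap in either. Bub1, a kinase that recruits checkpoint proteins to kinetochores, fell by 1.93 and by 1.61 after ATG and saline, and Ttk, the kinase at the top of the checkpoint, by 1.71 and by 1.75. Mad2l1, the inhibitor of Cdc20, fell by 1.03 and by 1.02.

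Bub3, which carries Bub1 and BubR1 to kinetochores, changed little. Its level was 44.1, 43.5 and 55.0 CPM in ATG hyperoxia and 47.3, 48.1 and 47.0 CPM in saline hyperoxia, against 59.7, 54.1 and 68.0 CPM in ATG room air and 52.1, 53.1 and 55.0 CPM in saline room air. The ATG groups overlapped by 1 library, and the saline groups stood apart by a narrow margin. Its log2 fold change was −0.35 after ATG (95% interval −0.58 to −0.12, edgeR adjusted p = 0.0482) and −0.17 after saline (−0.40 to 0.06, adjusted p = 0.381). The call after ATG ended in 17 of 22 alternatives, among them leaving out any of 10 single libraries, with values between −0.45 and −0.24 over all 22.

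Of the 4 genes of anaphase entry, 3 fell after ATG and 2 after saline. Espl1 (chromosome 15, 102296254 to 102324357), the separase that cuts cohesin, had 5.96, 2.97 and 4.63 CPM in ATG hyperoxia and 3.60, 8.75 and 7.24 CPM in saline hyperoxia, against 24.8, 10.5 and 27.4 CPM in ATG room air and 20.3, 22.7 and 25.7 CPM in saline room air. The gap between ATG room air 2, at 10.5 CPM, and saline hyperoxia 2, at 8.75 CPM, was narrow, and no hyperoxia library reached a room air library. Espl1 fell by 2.21 after ATG (SE 0.36, edgeR adjusted p = 0.00125) and by 1.82 after saline (SE 0.36, adjusted p = 0.00596). Ube2c, the ubiquitin-conjugating enzyme that works with the anaphase-promoting complex, fell by 1.82 and by 1.43 after ATG and saline.

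Cdc20, the activator of the anaphase-promoting complex, had 3.97, 4.20 and 3.69 CPM in ATG hyperoxia and 3.86, 8.98 and 6.21 CPM in saline hyperoxia, against 12.03, 7.80 and 16.5 CPM in ATG room air and 10.5, 12.3 and 13.3 CPM in saline room air. The 3 ATG hyperoxia libraries were close together, while saline hyperoxia 1 was near them and saline hyperoxia 2 and 3 were higher. Cdc20 fell by 1.61 after ATG (SE 0.30, edgeR adjusted p = 0.00284), and its log2 fold change after saline was −0.93 (SE 0.29, adjusted p = 0.0637). Without saline hyperoxia 2 the saline value was −1.25 and passed (edgeR adjusted p = 0.0201). Over the 22 alternatives the saline value ran between −1.64 and −0.66, passed in 8 and did not pass in 14. The ATG and saline effects on Cdc20 were not shown to differ (difference −0.69, 95% interval −1.58 to 0.20, edgeR adjusted p = 1).

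Pttg1, the securin that blocks separase until anaphase, did not follow the others. Its level was 18.2, 20.2 and 18.9 CPM in ATG hyperoxia and 19.5, 21.9 and 14.9 CPM in saline hyperoxia, against 18.1, 20.4 and 14.7 CPM in ATG room air and 18.7, 20.1 and 15.2 CPM in saline room air. All 4 groups overlapped fully. The log2 fold change was 0.11 after ATG (95% interval −0.25 to 0.47, edgeR adjusted p = 0.735) and 0.06 after saline (−0.30 to 0.42, adjusted p = 0.875), intervals that do not reach the drop of most other members. Securin and separase transcripts therefore stood at other ratios in the groups: per kilobase of merged exons, Pttg1 was at 9.56 and Espl1 at 0.516 CPM in ATG hyperoxia, against 8.86 and 2.39 CPM in ATG room air.

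**Figure D2:**
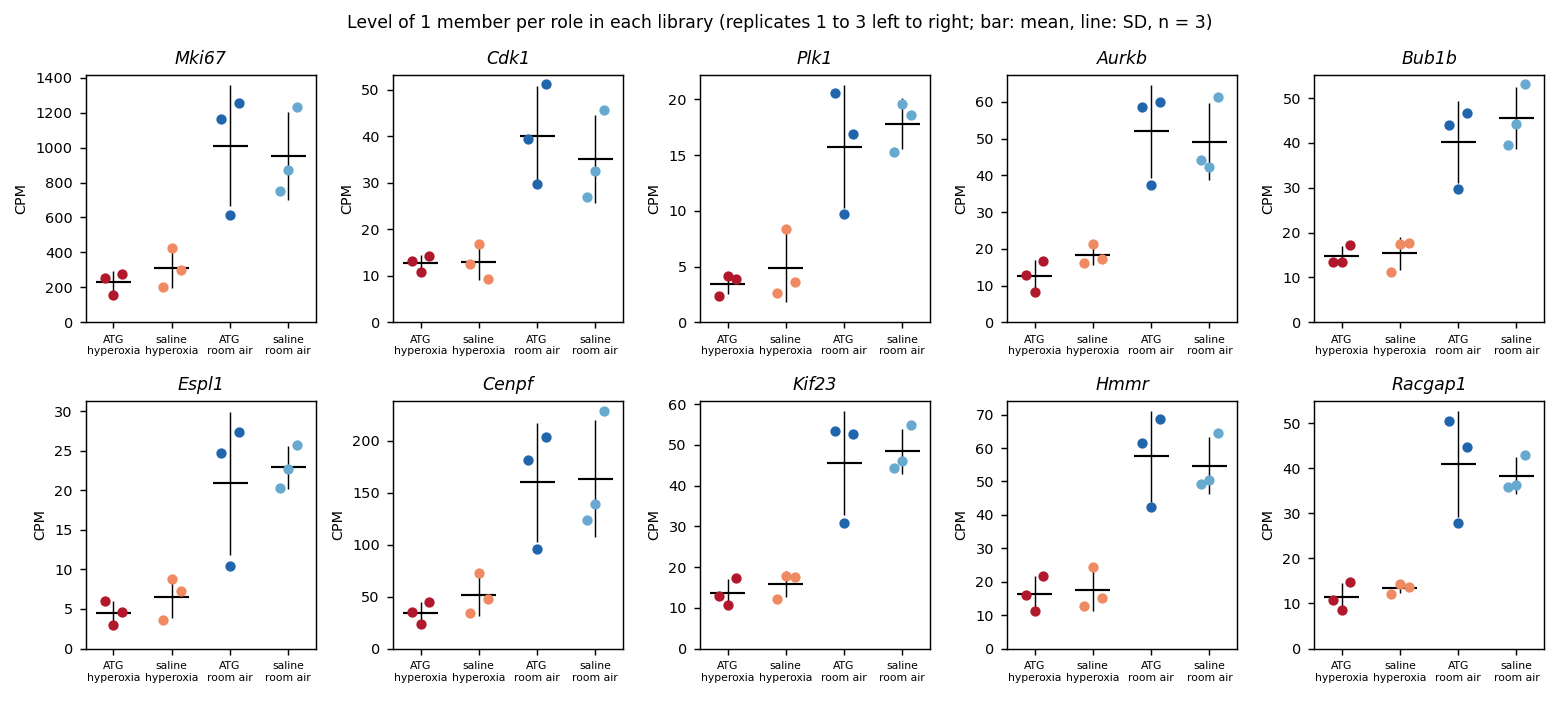
Level in CPM of 1 gene per role, the one with the smallest mean rank of p in both hyperoxia contrasts, in each of the 12 libraries, with groups from left to right ATG hyperoxia, saline hyperoxia, ATG room air and saline room air. Points are libraries, horizontal bars means and vertical lines SD (n = 3), and each panel has its own axis from 0. In all 10 panels, whose genes were so chosen for clear separation, the 6 hyperoxia libraries lie below the 6 room air libraries, as with Aurkb at 8.13 to 21.3 CPM against 37.3 to 61.3 CPM.

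The 7 centromere and kinetochore genes encode the chromosome side of the spindle attachment, and 6 fell after ATG and 5 after saline. Cenpf (chromosome 1, 189640606 to 189688107), a large protein of the outer kinetochore, had 34.8, 23.4 and 44.6 CPM in ATG hyperoxia and 33.9, 73.0 and 47.4 CPM in saline hyperoxia, against 182, 95.4 and 203 CPM in ATG room air and 123, 139 and 228 CPM in saline room air. It fell by 2.22 after ATG (SE 0.33, edgeR adjusted p = 0.000721) and by 1.67 after saline (SE 0.33, adjusted p = 0.00575), with no overlap in either. Cenpa, the histone H3 variant that marks centromeres, fell by 2.07 and by 1.53 after ATG and saline.

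The Ndc80 complex, which grips the end of the microtubule, has all 4 of its subunits here. Ndc80 fell by 1.82 after ATG and by 1.59 after saline, and Nuf2, its partner in the rod that meets the microtubule, by 1.80 and by 1.45. Spc24, in the end of the complex that faces the chromosome, had the deepest drop of the 45 after ATG, 2.23 (SE 0.32), and fell by 1.36 (SE 0.31) after saline. Its level was 2.87, 2.91 and 6.75 CPM in ATG hyperoxia and 7.30, 7.34 and 5.96 CPM in saline hyperoxia, against 21.8, 13.0 and 24.6 CPM in ATG room air and 15.7, 14.8 and 22.3 CPM in saline room air. Spc25, the partner of Spc24, had 8.82, 4.43 and 6.75 CPM in ATG hyperoxia and 6.43, 14.5 and 10.4 CPM in saline hyperoxia, against 22.2, 13.9 and 23.4 CPM in ATG room air and 18.8, 19.9 and 19.5 CPM in saline room air. Spc25 fell by 1.57 after ATG (SE 0.29, edgeR adjusted p = 0.00277), and its log2 fold change after saline was −0.90 (SE 0.28, adjusted p = 0.0649). Without saline hyperoxia 2 the saline value of Spc25 was −1.20 and past the threshold (edgeR adjusted p = 0.023). Over the 22 alternatives that value ran between −1.59 and −0.63, passed in 9 and did not pass in 13.

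Cenpk, a subunit of the constitutive centromere network, was the least abundant of the 45 per length and did not pass in either comparison. Its level was 1.60, 0.504 and 1.72 CPM in ATG hyperoxia and 1.29, 1.53 and 3.04 CPM in saline hyperoxia, against 3.29, 1.48 and 4.01 CPM in ATG room air and 3.90, 1.86 and 3.96 CPM in saline room air. Its intervals were wide, with a log2 fold change of −1.19 after ATG (95% interval −2.33 to −0.05, edgeR adjusted p = 0.178) and −0.73 after saline (−1.85 to 0.38, adjusted p = 0.443). The interval after ATG holds both a value near 0 and a drop as deep as that of the other kinetochore genes. Its libraries held 9 to 67 counts and also spread widely within groups.

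All 7 kinesins, the motors that slide and shorten spindle microtubules, fell after each injection. Kif23 (chromosome 9, 61917277 to 61946810), the motor of the centralspindlin complex in the dividing midzone, had 12.8, 10.7 and 17.3 CPM in ATG hyperoxia and 12.1, 17.8 and 17.5 CPM in saline hyperoxia, against 53.4, 30.9 and 52.6 CPM in ATG room air and 44.3, 46.1 and 54.8 CPM in saline room air. It fell by 1.74 after ATG (SE 0.22, edgeR adjusted p = 0.000271) and by 1.62 after saline (SE 0.22, adjusted p = 0.000537). Cenpe, the motor that brings chromosomes to the metaphase plate, fell by 2.09 and by 1.52 after ATG and saline. Kif11, which pushes spindle poles apart, fell by 1.99 and by 1.48. Kif4, a chromosome-bound motor, fell by 1.86 and by 1.61, and Kif2c, a microtubule depolymerase, by 1.76 and by 1.43. Kif20a, a motor of cytokinesis, fell by 1.67 and by 1.31. Kif18a, which dampens chromosome oscillation, fell least, with log2 fold changes of −1.03 and −1.11. The annotated transcripts of Kif20a and Kif4 overlap those of Cdc23 (26.6% of the Kif20a transcript) and Pdzd11 (13.7% of the Kif4 transcript). Reads of Kif20a and Kif4 are therefore uncertain.

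Among the 5 spindle microtubule proteins, 3 fell after each injection. Hmmr (chromosome 11, 40701388 to 40733464), a spindle pole protein, had 16.0, 11.1 and 21.7 CPM in ATG hyperoxia and 12.7, 24.4 and 15.2 CPM in saline hyperoxia, against 61.6, 42.3 and 68.6 CPM in ATG room air and 49.3, 50.3 and 64.6 CPM in saline room air. It fell by 1.82 after ATG (SE 0.26, edgeR adjusted p = 0.000549) and by 1.65 after saline (SE 0.26, adjusted p = 0.00147). Tpx2, which activates aurora A on the spindle, fell by 1.86 and by 1.46 after ATG and saline, and Nusap1, a microtubule bundler, by 1.71 and by 1.59.

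Ckap2, a protein of spindle poles, did not pass. Its level was 21.7, 12.4 and 28.6 CPM in ATG hyperoxia and 16.0, 39.8 and 28.5 CPM in saline hyperoxia, against 34.2, 17.1 and 37.9 CPM in ATG room air and 27.0, 24.8 and 33.5 CPM in saline room air. The libraries spread by about as much within groups as between them, and the log2 fold change was −0.51 after ATG (SE 0.34, edgeR adjusted p = 0.388) and −0.02 after saline (SE 0.34, adjusted p = 0.985). The saline value was −0.34 without saline hyperoxia 2, 0.27 without saline hyperoxia 1 and −0.82 without saline hyperoxia 2 and 3, and passed in none of the 22 alternatives. Ckap5, a microtubule polymerase that also serves cells between divisions, was at 136, 130.1 and 140.3 CPM in ATG hyperoxia and 133, 148 and 142 CPM in saline hyperoxia, against 189.9, 136 and 190.1 CPM in ATG room air and 165, 167 and 200.3 CPM in saline room air. Its spread was small in hyperoxia, with an SD of 5.12 CPM after ATG and 7.39 CPM after saline. In room air it was wider, with an SD of 31.15 CPM after ATG and 19.95 CPM after saline. ATG room air 2 lay at the hyperoxia level. The log2 fold change of Ckap5 was −0.34 after ATG (95% interval −0.60 to −0.09, edgeR adjusted p = 0.072) and −0.33 after saline (−0.58 to −0.08, adjusted p = 0.0983). Without ATG room air 2 Ckap5 passed in both, at −0.47 after ATG (edgeR adjusted p = 0.00395) and −0.32 after saline (adjusted p = 0.0255). Over the 22 alternatives it passed in 2 after ATG and in 3 after saline, and did not pass in the other 20 and 19.

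The 4 genes of the central spindle and cytokinesis fell after each injection. Racgap1 (chromosome 15, 99620496 to 99651656), the partner of Kif23 in centralspindlin, had 10.7, 8.57 and 14.9 CPM in ATG hyperoxia and 12.2, 14.3 and 13.8 CPM in saline hyperoxia, against 50.4, 27.8 and 44.8 CPM in ATG room air and 35.8, 36.3 and 43.1 CPM in saline room air. It fell by 1.85 after ATG (SE 0.22, edgeR adjusted p = 0.000139) and by 1.52 after saline (SE 0.22, adjusted p = 0.000687), and its adjusted p after ATG was the smallest of the 45. Prc1, the bundler of midzone microtubules, fell by 2.02 and by 1.59 after ATG and saline. Anln, the anillin of the contractile ring, fell by 1.78 and by 1.70, and Ect2, the activator of RhoA at the cleavage furrow, by 1.54 and by 1.38. The Prc1 transcript overlaps that of Rccd1 over 22.1% of its length, which makes its reads uncertain in the same way, as does the overlap of Ccna2 with Exosc9 (14.5%). Racgap1 reads are uncertain too, since the processed pseudogene AC148020.1 matches 16.0% of its transcript at 98.2% identity. Of the 45, 9 had such a match to another gene, the rest of them Ndc80 (up to 13.8% of its transcript), Mad2l1 (6.0%), Mki67 (2.1%) and those named above.

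**Figure D3:**
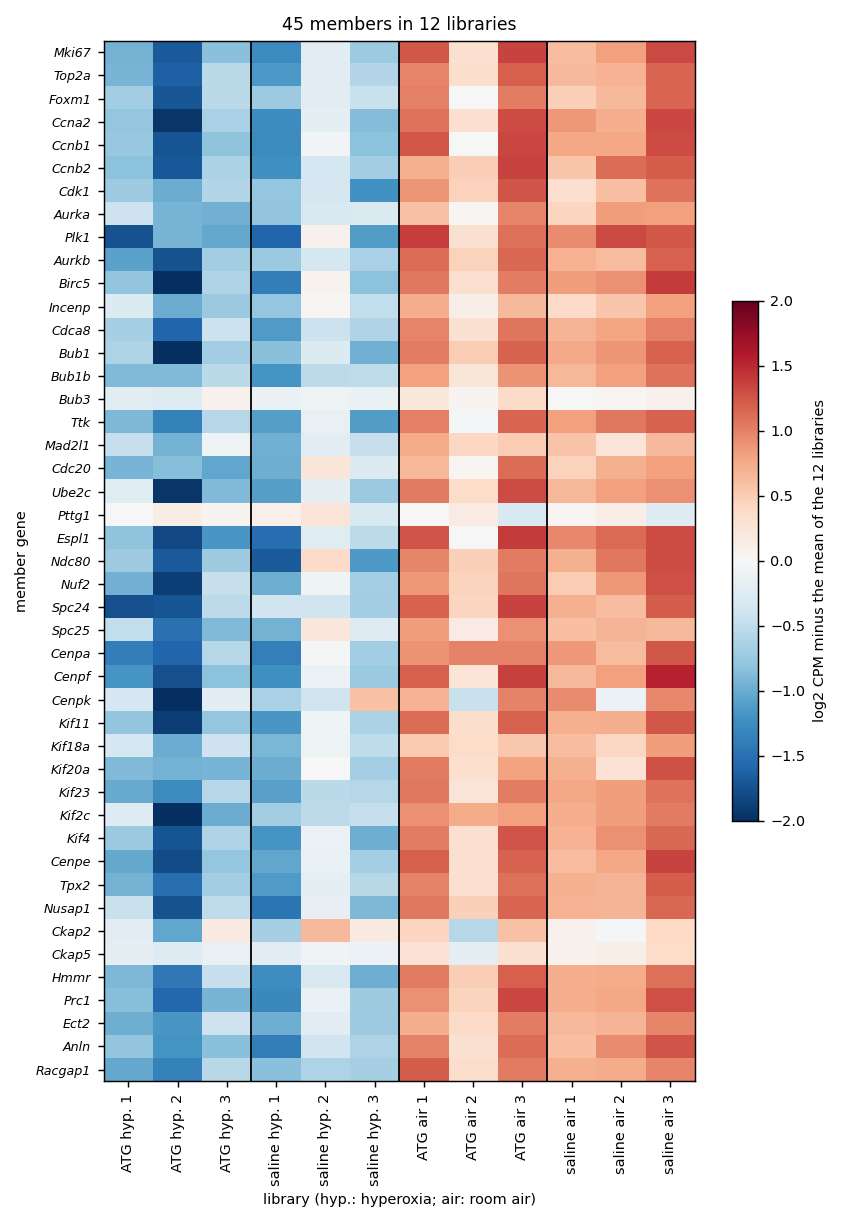
Log2 CPM of each of the 45 genes in each of the 12 libraries, minus that gene's mean over the 12 libraries, with genes down the page by role and libraries in the order ATG hyperoxia, saline hyperoxia, ATG room air and saline room air. Blue is below and red above the gene's mean, on a scale of −2 to 2. Within groups the columns shift as a whole, with ATG hyperoxia 2 the lowest of its group for 40 genes and ATG room air 2 for 43, while the rows of Bub3, Pttg1 and Ckap5 stay pale.

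Of the 45 genes, 38 fell after both injections, and 4 (Pttg1, Cenpk, Ckap2 and Ckap5) passed in neither. The other 3, Bub3, Cdc20 and Spc25, passed after ATG but not after saline. The saline calls were the less secure, since 26 of 38 held in all 22 alternatives, against 40 of 41 after ATG. Without saline room air 3, 10 saline calls ended (Foxm1, Ccnb1, Birc5, Incenp, Ube2c, Ndc80, Nuf2, Spc24, Kif20a and Kif2c, at −1.46 to −0.84, with edgeR adjusted p = 0.0517 to 0.089). Without saline hyperoxia 3, 7 of those 10 ended (edgeR adjusted p = 0.0521 to 0.099), without saline hyperoxia 1, 5 of them (0.0523 to 0.0687), and without saline room air 2 that of Ndc80 (0.0631). Of the 12 saline calls that ended in some alternative, the other 2 were Aurka (−0.98, edgeR adjusted p = 0.113) without saline hyperoxia 1 and 2 and ATG hyperoxia 2, and Bub1 (−1.79, adjusted p = 0.0524) without saline hyperoxia 2 and 3.

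The summed level of the 45 genes shows the same contrast in a single value per library. It was 1143, 763 and 1262 CPM in ATG hyperoxia and 962, 1702 and 1265 CPM in saline hyperoxia, against 3819, 2316 and 4172 CPM in ATG room air and 2869, 3117 and 4198 CPM in saline room air. The highest hyperoxia library, saline hyperoxia 2, was below the lowest room air library, ATG room air 2. The mean sum in hyperoxia was 30.7% of that in room air after ATG and 38.6% after saline. Mki67 alone made up 20.2% to 25.0% of the sum in hyperoxia libraries and 26.2% to 30.4% in room air libraries.

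Within each group the mitosis genes moved up and down as a block from library to library. In ATG hyperoxia, library 2 was the lowest of 3 for 40 of the 45 genes, against 37.1% of all genes tested, and library 3 the highest for 29, against 32.5%. In saline hyperoxia, library 1 was the lowest for 39 genes (35.9% of all genes) and library 2 the highest for 41 (35.1%). In ATG room air, library 2 was the lowest for 43 genes (37.9%) and library 3 the highest for 34 (33.0%), and in saline room air library 1 was the lowest for 32 (34.2%) and library 3 the highest for 41 (34.7%). The median coefficient of variation of the 45 genes was 32.9% in ATG hyperoxia, 32.5% in saline hyperoxia, 27.9% in ATG room air and 16.0% in saline room air, against 12.6%, 12.4%, 13.2% and 11.1% for all genes tested.

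Levels of some markers moved with this order in some groups, while cardiomyocyte markers were high at both ends of it. Saline hyperoxia 2, highest of its group in mitosis genes, was also the library with the most thymocyte marker RNA, 79.5 CPM, and had 3148 CPM of cardiomyocyte markers. ATG hyperoxia 2, lowest of its group, had 6967 CPM of cardiomyocyte markers and 9.08 CPM of thymocyte markers. Markers of erythroid precursors summed to 183, 248 and 223 CPM in saline hyperoxia and 323, 196 and 364 CPM in ATG room air, in the order of the mitosis sums. In ATG hyperoxia (450, 172 and 206 CPM) and saline room air (205, 181 and 220 CPM) they followed it only in part. The part of any of these cell types in the levels of the mitosis genes was not tested. With saline hyperoxia 2 and ATG hyperoxia 2 left out, 40 members fell after ATG (median −1.57) and 40 after saline (median −1.69). Without saline hyperoxia 2 and 3, the highest in summed thymocyte markers, the median of the members after saline was −1.97, in an alternative chosen after seeing the data. That fit has saline hyperoxia 1 as the lone library of its group, assumed to vary like the other groups, and since it was the lowest of its group for 39 members, a deeper median follows from the choice of library.

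**Figure D4:**
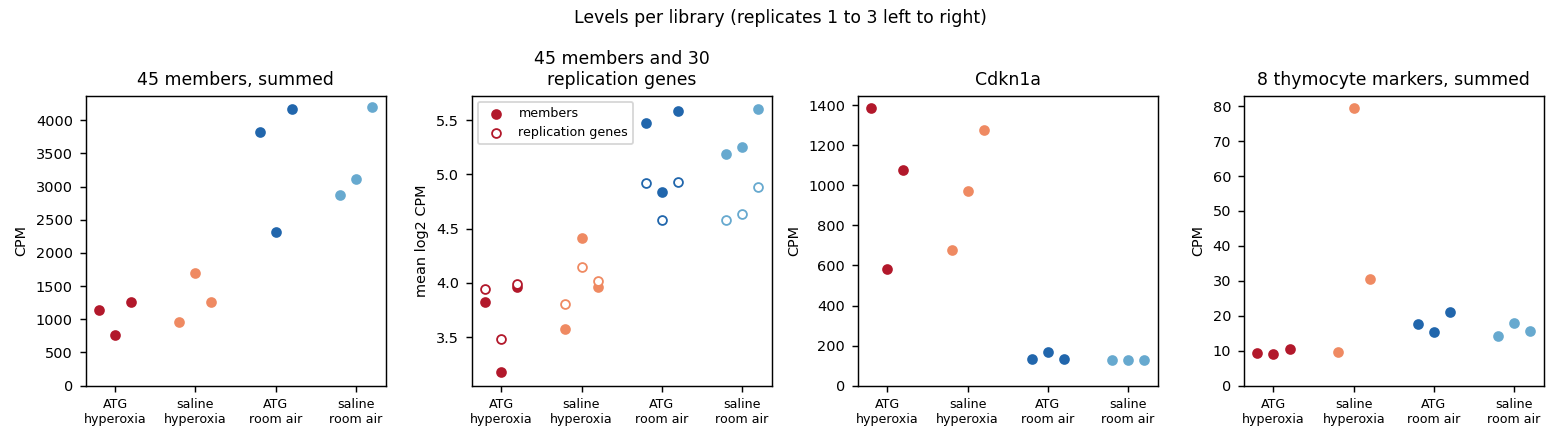
Per-library levels in the groups ATG hyperoxia, saline hyperoxia, ATG room air and saline room air, with replicates 1 to 3 from left to right. The panels show the summed CPM of the 45 mitosis genes, the mean log2 CPM of the 45 genes (filled) and of 30 DNA replication genes (open), the CPM of Cdkn1a, and the summed CPM of 8 thymocyte markers. The mitosis sum is 763 to 1702 CPM in hyperoxia and 2316 to 4198 CPM in room air, and the thymocyte sum stands out at 79.5 and 30.6 CPM in saline hyperoxia 2 and 3.

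ATG was compared with saline in room air to ask whether the drug alone touched these genes, and no gene passed. None of the 45 passed the edgeR test, as none of all genes tested did (0%), none had an unadjusted p under 0.05, against 6.02% of all genes tested, and DESeq2 called 0 of the 45. The log2 fold changes of ATG over saline ran from −0.24 to 0.19, with a median of −0.02 that was 0.18 without ATG room air 2 and −0.31 with sex as a covariate. The ATG and saline libraries overlapped for all 45 genes, where 5.7% of all genes tested lay wholly lower after ATG and 6.29% wholly higher. The 95% intervals of 43 genes lay within −1 and 1, so a change of 1 log2 unit either way lay outside them. For Cdk1 the interval was −0.31 to 0.70 and for Plk1 −0.92 to 0.57.

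In hyperoxia, ATG and saline were compared to ask whether the drug altered the response to oxygen. None of the 45 passed, against 0.00634% of all genes tested (1 gene), and DESeq2 called 0 of the 45. With unadjusted p under 0.05 there were 4 of the 45, against 5.69% of all genes tested, a share near the background. They were Cdc20, Spc24, Spc25 and Aurkb, all lower after ATG. Their log2 fold changes of ATG over saline were −0.68, −0.71, −0.64 and −0.53, each with edgeR adjusted p = 0.852. The ATG hyperoxia libraries of Aurkb (8.13 to 16.8 CPM) and its saline hyperoxia libraries (16.2 to 21.3 CPM) overlapped by 1 library.

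The sign of the ATG effect in hyperoxia leaned one way over the list but rested on few libraries. Of the 45 genes, 42 were lower after ATG, with a median log2 fold change of −0.36, and the libraries overlapped for all 45, where 5.54% of all genes tested lay wholly lower and 5.55% wholly higher. With 1 library left out the median ran between −0.53 (without saline hyperoxia 1) and −0.09 (without saline hyperoxia 2), and was −0.52 without ATG hyperoxia 3 and −0.11 without ATG hyperoxia 2. It was 0.11 without saline hyperoxia 2 and ATG hyperoxia 2, and 0.17 without saline hyperoxia 2 and 3. The genes are not independent of each other, as the block-like shifts between libraries show, so the count of 42 is no count of independent results.

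The difference between the ATG and saline responses to hyperoxia was tested as an interaction. None of the 45 genes passed, as none of all genes tested did (0%), and DESeq2 called 0 of the 45. None had an unadjusted p under 0.05, against 2.95% of all genes tested, and the smallest was 0.0644, for Spc24, whose response was 0.88 log2 units lower after ATG (95% interval −1.81 to 0.06). Of the 45 estimates, 41 were below 0, with a median of −0.33, and no 95% interval left out 0. With 1 library left out the median ran between −0.50 (without ATG room air 2) and −0.06 (without saline hyperoxia 2). It was 0.11 with sex as a covariate, 0.12 without saline hyperoxia 2 and ATG hyperoxia 2, and 0.17 without saline hyperoxia 2 and 3. The deeper drop after ATG than after saline was therefore not shown to be a difference between them.

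Other genes of the same pathways were listed by function and are described by counts. Of 80 other mitosis genes, 55 fell and 1 rose after ATG (background 6.25% lower and 5.41% higher), and 49 fell and 1 rose after saline (4.5% lower and 4.7% higher), with medians of −1.35 and −1.07. Cdca5, the sororin that protects cohesin, had 4.63, 2.19 and 2.81 CPM in ATG hyperoxia and 2.78, 4.46 and 3.23 CPM in saline hyperoxia, against 11.7 to 12.8 CPM in ATG room air and 10.8 to 12.7 CPM in saline room air. It fell by 1.92 after ATG (edgeR adjusted p = 0.000379) and by 1.78 after saline (adjusted p = 0.000768). Kntc1, part of the complex that brings dynein to kinetochores, fell by 1.70 and by 1.42. Smc2, a condensin core subunit, fell by 1.36 and by 1.13, and Cks1b, a small partner of cyclin-dependent kinases, by 1.24 and by 0.93. The gene that rose in both was Psrc1, a spindle-associated protein gene outside the naming rule, singled out after its values were seen. Psrc1 was at 11.8 to 25.5 CPM in ATG hyperoxia and 17.6 to 27.2 CPM in saline hyperoxia, against 4.37 to 9.01 CPM in ATG room air and 7.94 to 10.2 CPM in saline room air, and rose by 1.67 (edgeR adjusted p = 0.00218) and by 1.32 (adjusted p = 0.0112).

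The regulators of mitosis genes listed next moved less as a set, though not each of them. Listed were 19 subunits of the DREAM and MuvB complexes and E2F factors. These repress mitosis genes in resting cells and activate them in cycling cells. Of the 19, 6 fell after ATG (background 6.25% lower) and 5 after saline (4.5% lower), with medians of −0.31 and −0.23. E2f8 and E2f7, repressive E2F factors, fell by 1.64 and 1.33 after ATG and by 1.23 and 1.16 after saline. Rbl1, the p107 pocket protein, fell by 0.92 and 0.64, and E2f3 and E2f1, activating E2F factors, fell by 0.66 and 0.96 after ATG and by 0.47 and 0.52 after saline. The saline call of E2f1 (edgeR adjusted p = 0.0494) ended in 13 of 22 alternatives, among them leaving out any of 9 single libraries (all but saline room air 1, ATG room air 2 and ATG hyperoxia 2), at −0.60 to −0.42. That of Rbl1 ended in 6, among them leaving out saline room air 1 or 3 or saline hyperoxia 1 or 3 (−0.69 to −0.53). That of E2f3 ended in 5, among them leaving out saline room air 2 or 3 or saline hyperoxia 1 or 3 (−0.47 to −0.35). That of E2f7 ended in 3, among them leaving out saline room air 3 (−1.03) or saline hyperoxia 3 (−1.07), and that of E2f8 in 1.

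Of 14 tested G1 cyclins, their kinases and inhibitors, 4 fell and 2 rose after ATG (background 6.25% lower and 5.41% higher). After saline 4 fell and 1 rose (4.5% lower and 4.7% higher). With 14 genes, the 1 or 2 that rose are too few to set against these shares. Cdkn1a, the p21 inhibitor of cyclin-dependent kinases, was at 1385, 580.1 and 1078 CPM in ATG hyperoxia and 678, 973 and 1274 CPM in saline hyperoxia, against 134 to 168 CPM in ATG room air and 126 to 131 CPM in saline room air. The library lowest in mitosis genes, ATG hyperoxia 2, was also the lowest of the hyperoxia libraries in Cdkn1a. It had the highest sum of cardiomyocyte markers too, 6967 CPM. A link of Cdkn1a to the mitosis genes was not tested. Ccne1 and Ccne2, the E-type cyclins of S phase entry, fell by 1.43 and 1.24 after ATG and by 1.00 and 0.95 after saline. Cdkn2d and Cdkn2c, inhibitors of Cdk4 and Cdk6, fell by 0.82 and 1.53 after ATG and by 0.64 and 1.43 after saline. The saline call of Ccne2 ended in 8 of 22 alternatives, among them leaving out saline room air 2 or 3 or any saline hyperoxia library (−1.06 to −0.63). That of Cdkn2c ended in 6, among them leaving out any saline room air library or saline hyperoxia 1 or 3 (−1.44 to −1.25), and its ATG call in 2, 1 of them without ATG room air 3 (−1.14). Those of Ccne1 and Cdkn2d ended in 2 and 1 alternatives, none of which left out a single library.

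DNA replication genes, which peak in S phase, fell by less than the mitosis genes. Of 30, 24 fell after ATG (background 6.25% lower) and 18 after saline (4.5% lower), with medians of −0.91 and −0.68. Gins2 and Mcm2 (replicative helicase), Pole (leading-strand polymerase) and Pcna (sliding clamp) fell by 1.60, 0.83, 1.51 and 0.81 after ATG, and by 1.13, 0.63, 1.17 and 0.45 after saline. Mcm6, another helicase subunit, fell by 0.90 after both. The mean log2 CPM of the 45 mitosis genes minus that of the replication genes was −0.31 to −0.03 in ATG hyperoxia and −0.23 to 0.27 in saline hyperoxia, against 0.26 to 0.65 in ATG room air and 0.61 to 0.72 in saline room air. The saline hyperoxia and room air values did not overlap, nor did those after ATG, and across injections saline hyperoxia 2 (0.27) was level with ATG room air 2 (0.26). No test was run on these scores, since the genes were chosen with their changes known.

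Since most members moved together, their promoters were searched for elements known from mitosis genes. These are the CHR (TTTGAA), a site of the MuvB core, its variant TTCGAA, and the CCAAT box (CCAAT), a site of NF-Y, each read on both strands. RefSeq's table (GRCm38.p6) gave a promoter, 250 bases before to 50 after the start, for 38 of the 45, and the other 7 are Foxm1, Ccna2, Aurkb, Incenp, Spc24, Kif20a and Tpx2. The last 110 bases before the start are printed for 4 genes that fell after both injections, for Cdc20, which fell after ATG and did not pass after saline, and for Ckap5, which passed in neither, because each holds both elements close together. Capitals mark TTTGAA or its reverse complement TTCAAA, and CCAAT or its reverse complement ATTGG.
Cdc20 (chr4:118437344-118437453, minus strand): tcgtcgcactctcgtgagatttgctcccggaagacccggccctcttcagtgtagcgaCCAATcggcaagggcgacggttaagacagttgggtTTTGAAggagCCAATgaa
Espl1 (chr15:102296183-102296292, plus strand): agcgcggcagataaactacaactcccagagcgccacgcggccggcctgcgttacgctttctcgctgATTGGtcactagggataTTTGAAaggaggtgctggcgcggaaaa
Kif11 (chr19:37376272-37376381, plus strand): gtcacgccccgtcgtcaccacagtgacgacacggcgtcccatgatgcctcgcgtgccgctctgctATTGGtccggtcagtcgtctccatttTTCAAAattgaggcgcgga
Cdk1 (chr10:69352913-69353022, minus strand): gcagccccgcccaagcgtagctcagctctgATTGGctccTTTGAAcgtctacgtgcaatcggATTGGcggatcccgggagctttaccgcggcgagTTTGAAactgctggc
Top2a (chr11:99024190-99024299, minus strand): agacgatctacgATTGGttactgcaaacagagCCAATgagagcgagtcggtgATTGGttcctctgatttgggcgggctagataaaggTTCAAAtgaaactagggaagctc
Ckap5 (chr2:91526652-91526761, plus strand): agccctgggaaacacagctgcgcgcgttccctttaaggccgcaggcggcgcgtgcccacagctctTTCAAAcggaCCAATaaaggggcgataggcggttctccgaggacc

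Both elements were more common in these promoters than in all promoters of the table. TTTGAA was in 28 of the 38 promoters (73.7%), against 18.1% of 27025 promoters of the same length. Within 50 bases of the start on either side, a window chosen after the positions were seen, it was in 25 of 38 (65.8%), against 4.92% of all. TTCGAA was in 3 (7.89%, against 1.57%), and CCAAT in 29 (76.3%, against 37.9%). Both TTTGAA and CCAAT were in 25 (65.8%, against 7.12%), and 2 matches overlapped another motif. The members and the motifs were chosen with earlier results of these data known, so these shares are descriptive. A match is a description of these letters and not of bound factors.

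Members with and without TTTGAA had similar changes, but this split cannot decide whether the elements matter. Most members fell, they were chosen with their changes known, and the 10 without TTTGAA are few. Some of those 10, such as Ccnb1 and Cenpe, hold a CCAAT box. Of the 28 genes with TTTGAA, 26 fell after ATG and 23 after saline, and of the 10 without it 8 and 8 fell. Median log2 fold changes were −1.80 with and −1.76 without TTTGAA after ATG, and −1.53 and −1.49 after saline. Bub3 and Ckap5, whose log2 fold changes lay between −0.35 and −0.17, hold both elements, as the printed Ckap5 promoter shows. Ckap2, which did not pass and had wide intervals, holds both as well. Pttg1, whose libraries overlapped between all groups, holds none of the 3 elements in this window, as do Birc5, Mad2l1, Nuf2, Kif18a and Nusap1, which fell.

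**Figure D5:**
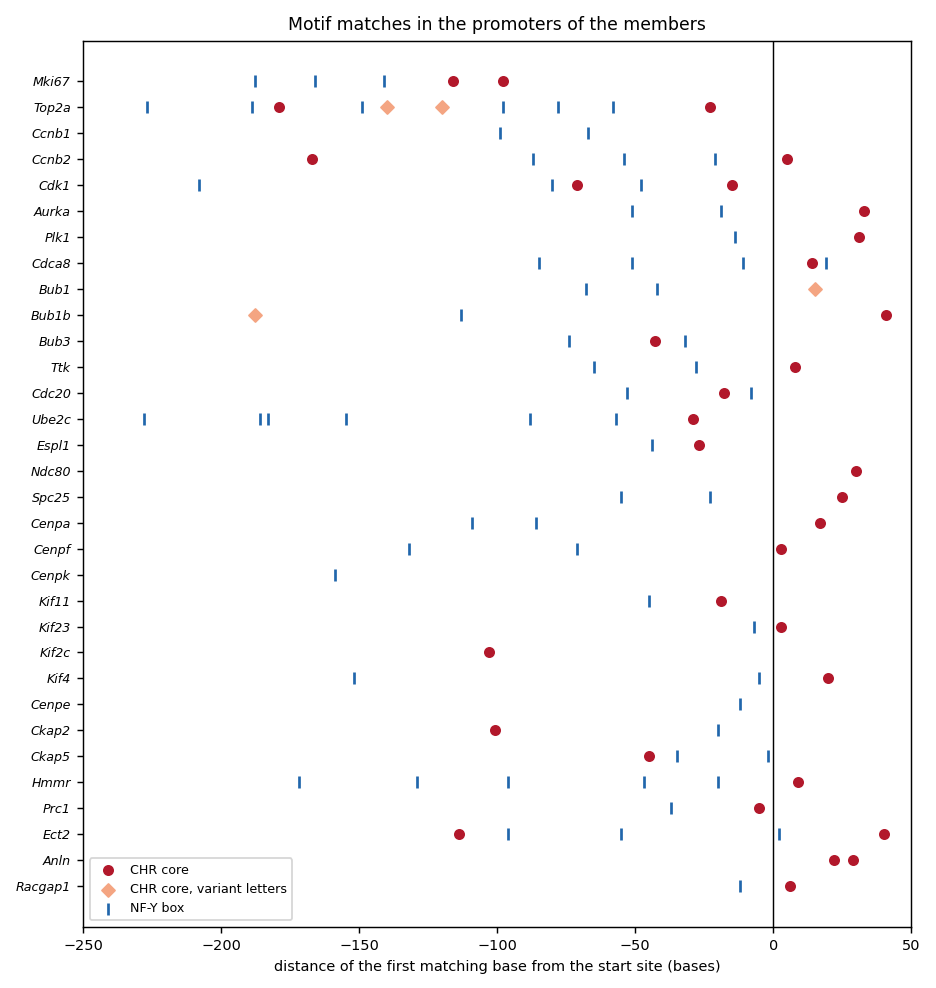
Position of each motif match, in bases from the start site, for the 32 genes with at least 1 match among the 38 with a promoter, ordered by role. Circles are TTTGAA, diamonds the variant TTCGAA and ticks the CCAAT box, on either strand. In 25 genes TTTGAA lies within 50 bases of the start.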

How the data were processed

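RNA came from lungs after lavage, and libraries were made with Ovation RNA-Seq System V2 and Nextera XT kits, per the labels' protocols. Whole-number read counts per gene, deposited by the authors for all 12 libraries, were used unchanged. Bowtie2, Cufflinks, DESeq and the mm10 build are named in the submitters' processing notes, without roles or versions, and no source used here names the counting tool, strand setting or annotation. Genes were filtered with filterByExpr (minimum count 10, minimum total 15), which left 15761 of 23478 genes and 99.96% of counts. TMM scaling and edgeR 4.0.16 (R 4.3.3) quasi-likelihood tests with 4 group means and 8 residual degrees of freedom gave 5 contrasts, adjusted by Benjamini-Hochberg over all genes tested at 0.05. The fitting was tested on simulated data. Alternatives numbered 22, with DESeq2 1.42.0 and limma 3.58.1 among them. Transcripts were aligned to GENCODE M21 for near-identical copies. The members, lists and motifs were chosen with earlier results of these data known. Genes shown with every library were, per role, the one with the smallest mean rank of p in the hyperoxia contrasts and those that did not pass. Spc24, the deepest drop after ATG, was also shown with every library, outside this rule. Named list genes were the 5 per list with the smallest mean rank of p in the hyperoxia contrasts. A gene that this rule names is not reported here.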

Additional observations from a re-analysis of the deposited data

How the results depend on the processing

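Over 22 alternatives, members called ran from 40 to 42 after ATG and from 28 to 41 after saline, and none was called for ATG against saline or the interaction. No pairing by replicate number was seen (correlation of same-numbered deviations −0.16 to 0.28, 2 of 18 over 0.1, and −0.27 to 0.22 for other pairs). With 3 libraries a group, these correlations cannot show that there was none. With the replicate block 41 members were called after ATG and 38 after saline, with all-gene counts of 1763 and 1356.

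Counts over all genes moved more. Hyperoxia after saline (1449 genes) gave 781 without saline hyperoxia 1 and 2 and ATG hyperoxia 2, and 588 without saline hyperoxia 2 and 3, where fewer samples entered. With 1 library left out it gave 740 to 1704, and after ATG (1838) 1150 to 2045. ATG against saline in hyperoxia (1 gene) gave 11 with DESeq2, 3 with limma-voom, 3 with no filter, 4 without saline hyperoxia 2 and 3, and 0 with sex as a covariate or without saline hyperoxia 2 and ATG hyperoxia 2, with or without saline hyperoxia 1 left out too, and 0 to 2 with 1 library left out. In room air (0 genes) DESeq2 gave 16, and leaving out 1 library 0 to 1. The interaction (0 genes) gave 4 without saline hyperoxia 2 and 3. The cause was not tested.

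The medians of the members for ATG against saline and for the interaction turned sign in some alternatives, as given above. Among the single genes recomputed (all members and the named list genes in both hyperoxia contrasts, and 4 members for ATG against saline in hyperoxia), signs turned in 4 cases. Without saline hyperoxia 2 and 3, ATG over saline in hyperoxia was 0.0372 for Cdc20 and 0.0548 for Spc25. Pttg1 after saline was −0.0538 without saline hyperoxia 2 and ATG hyperoxia 2, −0.26 without saline hyperoxia 1 as well, and −0.054 to 0.203 with 1 library left out. Ckap2 after saline was 0.0203 with the replicate block, 0.0211 without saline hyperoxia 1 and 2 and ATG hyperoxia 2, −0.34 to 0.27 with 1 library left out, and −0.82 without saline hyperoxia 2 and 3. Cenpk, with 9 to 67 counts a library, ran between −1.33 and −0.07 after saline.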
